A study of Mus musculus with 42 samples.

Results

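The genes described here are 50 genes of S phase and DNA replication, chosen by name from the replication machinery and its S-phase regulators, out of 55487 gene identifiers in each count table. All 50 were matched by Ensembl identifier and symbol, and all 50 passed the filter on low counts in mRNA and in ribosome footprints. They fell into 9 roles: 11 genes of origin licensing, 8 of helicase activation, 9 of the polymerases and primase, 6 of the clamp and clamp loader, 3 of single-strand binding, 2 of flap and nick processing, 4 of chromatin and histone supply, 4 of fork protection and checkpoint, and 3 of S-phase entry.

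The study compared leukaemia cells of mice that differed in diet and in chemotherapy. The cells were MLL-AF9 acute myeloid leukaemia cells, which a fused MLL and AF9 gene drives, that carried GFP and luciferase and had been expanded in culture from 1 terminally ill mouse. Male wild-type recipients aged 8 to 10 weeks received them by retro-orbital injection without preconditioning, and viable GFP+ cells were sorted from the bone marrow when the chemotherapy response was greatest. Each mouse gave 1 mRNA library (Smart-seq2, which copies polyadenylated RNA) and 1 library of ribosome footprints, the short RNA pieces that ribosomes protect from RNase. There were 4 groups. In the BCAA-free 5+3 group (7 mice) the diet lacked the branched-chain amino acids (BCAA), and the mice received cytarabine at 100 mg/kg daily for 5 days with doxorubicin at 3 mg/kg daily for the first 3 days, given by intraperitoneal injection. The AA 5+3 group (4 mice) received the same drugs on the amino acid control diet (AA). The BCAA-free vehicle group (5 mice) and the AA vehicle group (5 mice) received PBS on their diets. All groups therefore held cells from 1 leukaemia, and mice are numbered within their group.

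Replication begins when the origin recognition complex, Cdc6 and Cdt1 load the MCM helicase onto DNA in G1. The kinase Cdc7 with Dbf4, and then Mcm10, Cdc45 and the GINS complex, turn it into a moving helicase as S phase starts. Polymerase alpha with its primase starts each strand, the clamp loader places the PCNA clamp, and polymerases delta and epsilon extend. Many of these genes are known targets of E2F factors, and cytarabine is known to act by entering growing DNA strands.

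Promoter stretches are shown for 6 genes that the results turn on or that differ in E2F letters. RefSeq promoters (build GRCm38.p6) were matched for 40 of the 50 genes, in 47 entries. The 250 bases before each start were searched on both strands for the E2F letters TTTGGCGC, TTTCCCGC, TTTGCCGC and TTTCGCGC. At least 1 of them stood in 9 of the 40 genes (22.5%), against 475 of 17492 protein-coding genes (2.72%). CCAAT stood in 23 of the 40 genes (57.5%), against 39.5% of protein-coding genes, and TTTGAA in 6 genes (15%), against 16.9%. A match is a description of these letters and not a measured binding site. The last 150 bases before the start are printed 5′ to 3′ on the gene's strand, in lower case with E2F letters in capitals.

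Mcm6 (helicase subunit, chr1:128359706-128359855, minus strand) has matches that begin 110, 106 and 47 bases before the start, and the first 2 overlap.
Mcm6: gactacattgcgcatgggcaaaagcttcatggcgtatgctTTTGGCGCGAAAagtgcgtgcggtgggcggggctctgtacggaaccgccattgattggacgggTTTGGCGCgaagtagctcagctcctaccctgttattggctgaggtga
Gins3 (GINS subunit, chr8:95633409-95633558, plus strand) has 1 match, 41 bases before the start.
Gins3: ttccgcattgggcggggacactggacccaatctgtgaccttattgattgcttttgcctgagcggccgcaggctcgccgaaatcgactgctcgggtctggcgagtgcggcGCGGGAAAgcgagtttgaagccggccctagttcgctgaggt
Rfc3 (clamp loader subunit, chr5:151651209-151651358, minus strand) has 1 match, 10 bases before the start.
Rfc3: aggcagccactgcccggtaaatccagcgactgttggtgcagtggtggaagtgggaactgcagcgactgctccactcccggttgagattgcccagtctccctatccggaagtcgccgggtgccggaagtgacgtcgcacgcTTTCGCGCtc
Mcm10 (helicase activation, chr2:5012792-5012941, minus strand) has none of these letters.
Mcm10: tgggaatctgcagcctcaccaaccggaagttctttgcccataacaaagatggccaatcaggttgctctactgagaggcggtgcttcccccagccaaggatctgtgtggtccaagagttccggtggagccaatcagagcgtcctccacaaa
Rfc4 (clamp loader subunit, chr16:23127731-23127880, minus strand) has none.
Rfc4: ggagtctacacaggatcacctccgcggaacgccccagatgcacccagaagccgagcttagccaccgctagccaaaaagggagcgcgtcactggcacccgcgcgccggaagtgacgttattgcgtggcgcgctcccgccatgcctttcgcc
Fen1 (flap endonuclease, chr19:10204394-10204543, minus strand, the farther upstream of its 2 starts) has none.
Fen1: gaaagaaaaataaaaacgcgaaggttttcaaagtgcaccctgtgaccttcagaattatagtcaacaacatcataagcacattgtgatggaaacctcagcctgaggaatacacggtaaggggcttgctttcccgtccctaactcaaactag
The other genes with E2F letters were Cdc6, Mcm5, Mcm7, Orc1, Pola1 and Uhrf1. Genes with and without the letters were both among those called. For footprints under 5+3 on the BCAA-free diet, 5 of 9 genes with them were higher. Of 31 without them 6 were higher and 2 lower, where 8.76% of all genes were called higher and 11.9% lower. In mRNA of that comparison 3 of 9 and 8 of 31 were higher, against 4.33% of all genes. For footprints by diet under 5+3, 4 of 9 and 14 of 31 were lower, against 15.8% of all genes. These counts are a description and carry no test.

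The mRNA libraries held 30996200 to 70437713 gene counts and the footprint libraries 2697092 to 8863472. The 50 genes took 0.44% to 0.773% of the mRNA counts and 0.347% to 0.468% of the footprint counts. Their footprint counts were lowest for E2f1 and Gins3, each with a median of 25 counts per library, so changes of those genes were measured with the least precision. All 10 leukaemia markers passed the filter in both kinds of library. In mRNA all 10 erythroid and all 9 mature neutrophil markers passed too, so passing does not identify the cells. Across groups Hoxa9 mRNA averaged 302.1 to 419.6 CPM (the TMM-scaled share of a library's counts). Meis1 mRNA averaged 69.1 to 90.3 CPM, Kit mRNA 28.4 to 77.8 CPM and Mpo mRNA 2360.1 to 6665.3 CPM. Footprints of the 10 leukaemia markers, mostly Mpo and Elane, summed to 6039.3 to 7746.5 CPM in BCAA-free 5+3 mice and 8462.4 to 10413.7 in AA 5+3 mice. They summed to 6394.8 to 9122.3 CPM in BCAA-free vehicle mice and 5577.8 to 8965.3 in AA vehicle mice. In mRNA the sums were 9282.9 to 26830.8, 8634.2 to 20437.4, 5987.8 to 15754.2 and 6722.2 to 23166.7 CPM in that order of groups. Of 7 markers of T and NK cells, all passed the filter in mRNA, where they summed to 30.2 to 138.5 CPM over all mice, and 1 passed it in footprints, where they summed to at most 9.27 CPM. Most of the mRNA sum was Nkg7, with group means of 61.3 to 84.8 CPM. Every other marker of this list had group means of at most 1.4 CPM. Of 6 macrophage markers, 5 passed the filter in footprints. Those 5 summed to 122.2 to 194.1 CPM of footprints in BCAA-free 5+3 mice and 175.4 to 252.0 in AA 5+3 mice. The sums were 156.2 to 166.4 CPM in BCAA-free vehicle mice and 253.4 to 306.7 in AA vehicle mice. Most of these sums was Vcam1 and Adgre1, and C1qa, C1qb and C1qc footprints averaged at most 2.45 CPM in any group. Mature neutrophil markers differed between groups: the 9 genes summed to 256.3 to 2588.6 CPM of mRNA in BCAA-free 5+3 mice, 2559.9 to 7740.6 in AA 5+3 mice, 3639.9 to 4774.4 in BCAA-free vehicle mice and 2156.1 to 3640.1 in AA vehicle mice. Their footprints summed to 104.5 to 1177.5, 697.1 to 2134.1, 841.8 to 1405.1 and 996.9 to 1366.9 CPM in the same order of groups. Erythroid markers (10 genes) summed to 37.2 to 80.9, 89.1 to 207.8, 121.8 to 176.9 and 56.9 to 85.2 CPM of mRNA in that order. Within these sums Tfrc averaged 44.1, 55.1, 59 and 47.2 CPM, and Hba-a1 0.826, 20, 36.8 and 7.79 CPM. The part of these markers in the results below was not tested. The p-values below measure the spread between mice. In sorted bulk cells, fewer cells in S phase and less replication RNA per cell cannot be told apart. The counting's strand setting is not given in the sources used here. Of the 50 genes 22 overlap another annotated gene, so their reads may be shared. For 13 it is a protein-coding gene (among them Fen1 with Tmem258, Rfc4 with Eif4a2, Orc1 with Prpf38a, Cdc45 with Ufd1). Pseudogenes overlap others. Gm29228, within Prim2, averaged 811 footprint counts per library, and Gm12936, at Clspn, 236. Pcna-ps2, a pseudogene copy of Pcna by name, averaged 1530, against 1860 for Pcna.

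Summed over the 50 genes, footprints averaged 4174.4 ± 185.3 CPM in BCAA-free 5+3 mice, 4659.4 ± 241.4 in AA 5+3 mice, 3769.0 ± 164.2 in BCAA-free vehicle mice and 4180.8 ± 230.4 in AA vehicle mice (SD, n = 7, 4, 5 and 5). The AA 5+3 mice were the highest group in footprints. In mRNA the sums averaged 6671.4 ± 1105.7, 5719.5 ± 290.9, 4810.3 ± 434.9 and 5554.1 ± 877.5 CPM in the same order of groups. There the BCAA-free 5+3 mice were the highest group and the most spread. These sums follow the most abundant genes and were not tested.

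**Figure D1:**
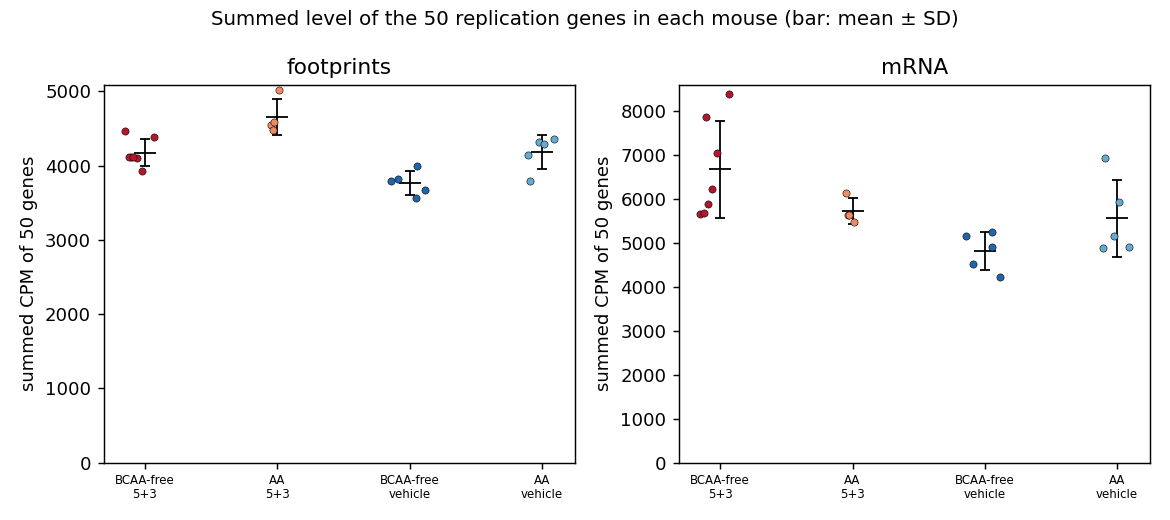
Summed CPM of the 50 replication genes in each mouse (points), with the group mean and SD (bars), for footprints on the left and mRNA on the right. In mRNA the BCAA-free 5+3 mice lie between 5655.6 and 8379.2 CPM, all above the BCAA-free vehicle mice, whose highest value is 5252.1.

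The first comparison asked how 5+3 changed replication genes on the BCAA-free diet. In mRNA, 12 of the 50 genes rose and 0 fell, at a false discovery rate of 0.05, where 4.33% of all 21114 genes tested were called higher and 4.23% lower. The genes that rose came from 7 of the roles: licensing (Cdc6, Mcm2, Mcm6), helicase activation (Mcm10, Gins3), polymerases and primase (Pold2, Prim2), the clamp loader (Rfc4, Rfc5), single-strand binding (Rpa1), flap removal (Fen1) and chromatin assembly (Chaf1b). The median log2 change of the 50 genes was 0.46, against -0.01 over all genes. Values for 42 of the 50 were above 0.

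Chaf1b, a subunit of the chromatin assembly factor that places histones behind the fork, had the highest log2 change of the 50 genes. Its mRNA was 51.2, 91.5 and 166.6 CPM as the lowest, median and highest of BCAA-free 5+3 mice, against 45.1, 28.4, 30, 50.5 and 19.2 CPM in BCAA-free vehicle mice. Every 5+3 mouse was above every vehicle mouse. The log2 change was 1.57 ± 0.31 (SE; adjusted p = 0.00776).

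Fen1, the flap endonuclease that trims lagging-strand fragments, had 174.5, 222.2 and 522.1 CPM of mRNA as its lowest, median and highest in BCAA-free 5+3 mice, against 124.6, 91.1, 93.0, 168.7 and 71.4 CPM in BCAA-free vehicle mice. The groups did not overlap, and the log2 change was 1.45 ± 0.32 (adjusted p = 0.0124). Rfc4 mRNA had 93.8, 142.2 and 236.8 CPM as its lowest, median and highest in BCAA-free 5+3 mice, against 98.7, 54.8, 50.1, 80.5 and 80.1 CPM in BCAA-free vehicle mice. The groups overlapped at 1 vehicle mouse, and 34 of the 35 pairs of mice were higher with 5+3 (log2 change 1.05 ± 0.24, adjusted p = 0.0153). Rfc5, another clamp loader subunit, had 125.5, 182.2 and 277.4 CPM in BCAA-free 5+3 mice, against 80.9, 83, 91.4, 123.7 and 90.9 CPM in BCAA-free vehicle mice. Those groups did not overlap, though by a narrow margin (log2 change 1.03 ± 0.25, adjusted p = 0.0178).

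Cdc6, which loads the helicase, had 33.3, 70.4 and 102.0 CPM of mRNA in BCAA-free 5+3 mice, against 27.8, 31.1, 34.4, 46.9 and 11.1 CPM in BCAA-free vehicle mice. Its groups overlapped, and its adjusted p of 0.0456 was the weakest of the 12 (log2 change 1.15 ± 0.35). Mcm10, needed for helicase activation, had 34.2, 56.7 and 83.2 CPM in BCAA-free 5+3 mice, against 32.0, 39.4, 31.5, 28.6 and 15.8 CPM in BCAA-free vehicle mice (log2 change 0.89 ± 0.22, adjusted p = 0.0221). It was higher in 33 of 35 pairs of mice. Rpa1, the large subunit of the single-strand binding protein, averaged 198.2 ± 73.2 CPM in BCAA-free 5+3 mice and 83.6 ± 26.5 in BCAA-free vehicle mice (SD; log2 change 1.25 ± 0.28, adjusted p = 0.0139). Prim2, the large primase subunit, averaged 53.4 ± 10.1 and 24.0 ± 11.9 CPM in the same groups (log2 change 1.15 ± 0.28, adjusted p = 0.0194). Among genes not called, Cdc7, the kinase that fires origins, had the lowest log2 change, -0.55 ± 0.29 (adjusted p = 0.227).

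The 12 mRNA calls depended on which libraries entered. Earlier results of these data had placed 4 mRNA libraries apart, mouse 7 of the BCAA-free 5+3 group and mice 1, 2 and 5 of the BCAA-free vehicle group. On the first principal component computed here, mouse 7 did not stand apart. It lay at 17.7, beside AA 5+3 mouse 4 at 18.3 and AA vehicle mouse 5 at 20.8. The same 4 libraries held the fewest genes with a count of all mRNA libraries. BCAA-free vehicle mice 1, 2 and 5 had 20195, 21901 and 21543 such genes, and BCAA-free 5+3 mouse 7 had 22264. The next lowest was AA vehicle mouse 1, with 23619. The part of this in the calls was not tested. Without the 4 libraries, which left 6 BCAA-free 5+3 mice and 2 BCAA-free vehicle mice, 0 of the 50 genes were called, as were 2 higher and 17 lower of 24387 genes tested, while the median log2 change of the 50 was 0.53. With only the 2 compared groups in the fit 7 were called, and without BCAA-free vehicle mouse 2 there were 6.

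**Figure D2:**
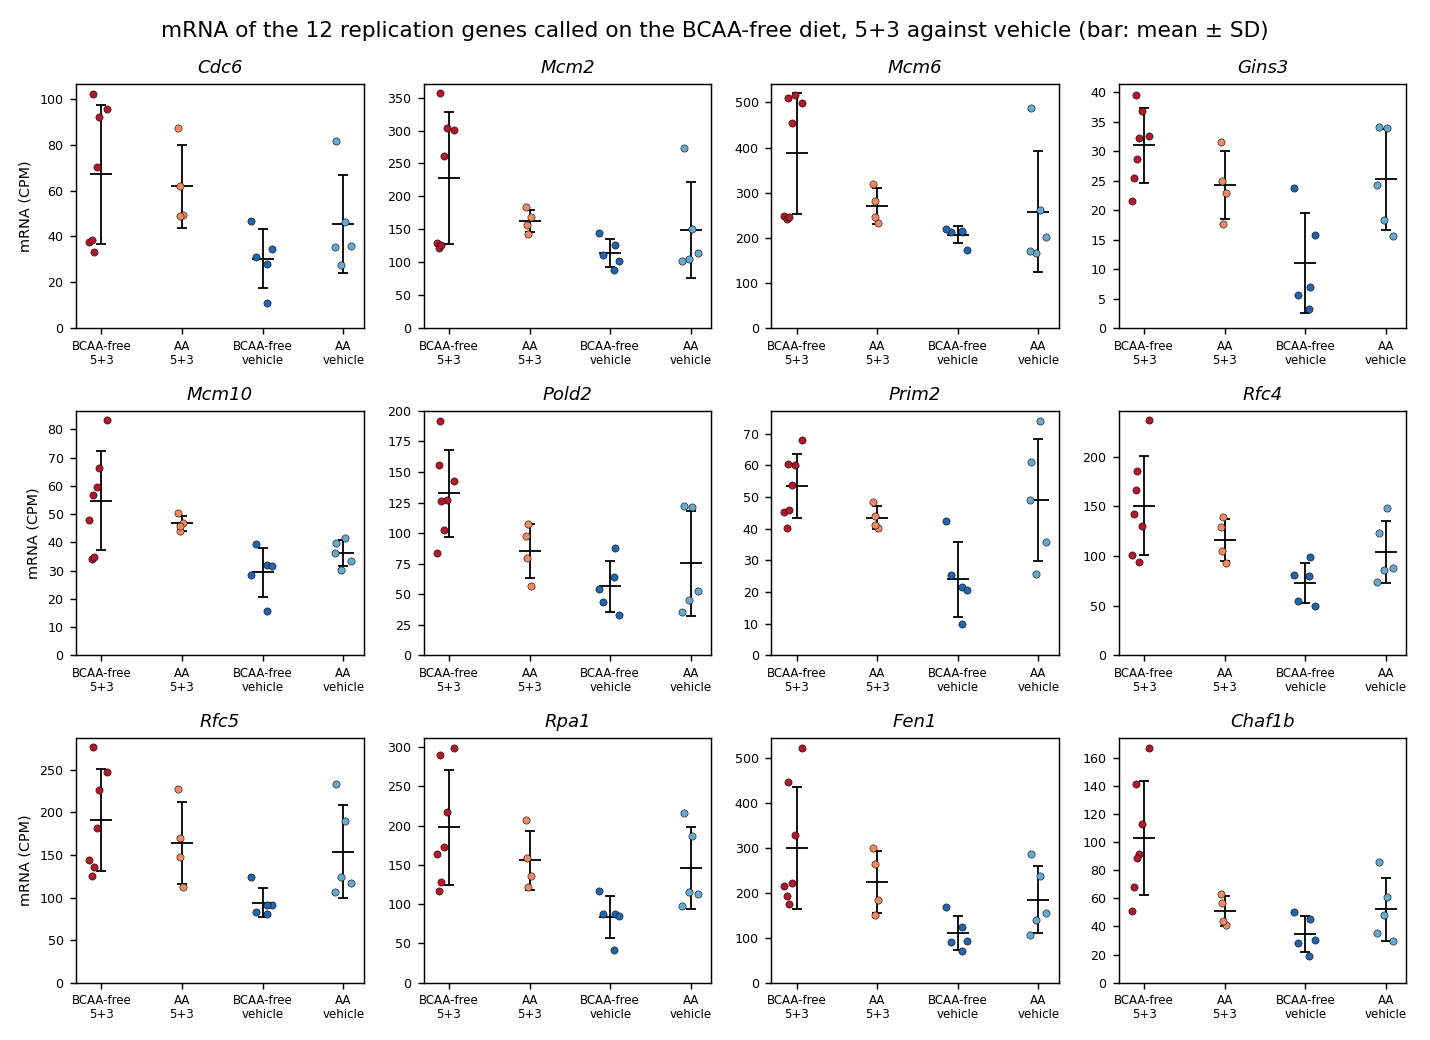
mRNA in CPM of the 12 replication genes called on the BCAA-free diet between 5+3 and vehicle, in each of the 21 mice (points), with the group mean and SD (bars). Chaf1b, Fen1, Mcm6, Rfc5 and Rpa1 show no overlap between the BCAA-free 5+3 and BCAA-free vehicle mice, and AA vehicle mouse 4 lies far above its group for Mcm2 (274.0 CPM) and Mcm6 (487.2 CPM).

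In footprints of the same comparison, 14 of the 50 genes rose and 2 fell, where 8.76% of 15723 genes tested were called higher and 11.9% lower. With protein-coding rows alone, an alternative chosen after seeing the data, 25 rose and 1 fell, where 11.5% of 9686 genes were called higher and 11.3% lower. Origin licensing held the most calls: Cdc6, Mcm3, Mcm4, Mcm7, Orc1 and Orc6 rose, and all 11 licensing genes had values above 0. The others that rose were Gins1, Pola1, Rfc4, Rpa2, Fen1, Uhrf1, Clspn and Ccne2. Pola2 and Wdhd1 fell. Cdc6, Fen1 and Rfc4 were called higher in mRNA as well, so 3 of the 12 mRNA calls and of the 14 footprint calls were shared. The footprint changes of the 14 genes that rose lay between 0.21 (Mcm3) and 0.51 (Ccne2) on the log2 scale.

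Cdc6 footprints were 40.4, 43.8 and 50.1 CPM as the lowest, median and highest of BCAA-free 5+3 mice, and 36.2, 33.1, 33.6, 39.9 and 36.7 CPM in BCAA-free vehicle mice. The groups did not overlap (log2 change 0.33 ± 0.08, adjusted p = 0.00757). Gins1, a subunit of the GINS complex that travels with the helicase, had 22.7, 28.8 and 31.3 CPM in BCAA-free 5+3 mice, against 16.3, 22.1, 21.7, 24.1 and 17.6 CPM in BCAA-free vehicle mice. It was higher in 34 of 35 pairs of mice (log2 change 0.46 ± 0.11, adjusted p = 0.00372). Ccne2, cyclin E2 of the G1 to S transition, had 24.1, 28.3 and 39.6 CPM in BCAA-free 5+3 mice, against 16.9, 17.8, 26.6, 17.8 and 23 CPM in BCAA-free vehicle mice. The groups overlapped at 1 vehicle mouse (log2 change 0.51 ± 0.14, adjusted p = 0.0106). Uhrf1, which recruits maintenance DNA methylation to new DNA, had 215.7, 239.3 and 270.7 CPM in BCAA-free 5+3 mice, against 200.1, 213.4, 178.7, 202.3 and 196.8 CPM in BCAA-free vehicle mice, with no overlap (log2 change 0.28 ± 0.08, adjusted p = 0.0179).

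Fen1 footprints were 81.0, 83.3 and 102.8 CPM in BCAA-free 5+3 mice, against 82.9, 68.7, 72.0, 74.0 and 73.6 CPM in BCAA-free vehicle mice (log2 change 0.23, adjusted p = 0.0389). Rfc4 footprints were 26.3, 38.9 and 40.3 CPM in BCAA-free 5+3 mice, against 27.5, 35.0, 31.3, 32.6 and 26.9 CPM in BCAA-free vehicle mice (log2 change 0.28, adjusted p = 0.0432). Both overlapped, Fen1 at vehicle mouse 1 and Rfc4 at 5+3 mouse 7.

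Orc1, the largest subunit of the origin recognition complex, had 12.2, 15.9 and 22 CPM in BCAA-free 5+3 mice, against 10.6, 11.6, 13.7, 12.5 and 12.5 CPM in BCAA-free vehicle mice (log2 change 0.49 ± 0.15, adjusted p = 0.0251). Pola1, the catalytic subunit of polymerase alpha, had 59.8, 82.1 and 110.4 CPM, against 71.2, 59.5, 63.7, 68.8 and 54.0 CPM in BCAA-free vehicle mice. Its groups overlapped, and 30 of 35 pairs were higher with 5+3 (log2 change 0.43 ± 0.13, adjusted p = 0.0217). Mcm7, a subunit of the helicase, averaged 375.7 ± 31.6 CPM in BCAA-free 5+3 mice and 296.9 ± 33.7 in BCAA-free vehicle mice (log2 change 0.34 ± 0.08, adjusted p = 0.00676), and Clspn, the claspin adaptor of the checkpoint kinase, averaged 61.7 ± 6.85 and 48.0 ± 4.90 CPM (log2 change 0.36 ± 0.09, adjusted p = 0.00538).

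Pola2, the regulatory subunit of polymerase alpha, fell where its partner Pola1 rose. Its footprints were 11.1, 19.0 and 22.2 CPM as the lowest, median and highest of BCAA-free 5+3 mice, against 34.0, 29.2, 21.3, 29.4 and 29.6 CPM in BCAA-free vehicle mice. The groups overlapped only at vehicle mouse 3 (log2 change -0.62 ± 0.13, adjusted p = 0.00199). Its mRNA was 52.0, 74.1 and 89.3 CPM in BCAA-free 5+3 mice, against 66.7, 66.8, 88.3, 90.5 and 65.3 CPM in BCAA-free vehicle mice, with a log2 change of -0.06 (adjusted p = 0.842). Wdhd1, which links the helicase to polymerase alpha, had 46.2, 54.3 and 67.2 CPM of footprints in BCAA-free 5+3 mice, against 70.2, 74.3, 71.4, 68.0 and 67.3 CPM in BCAA-free vehicle mice. Every 5+3 mouse was below every vehicle mouse, by a narrow margin (log2 change -0.32 ± 0.10, adjusted p = 0.0223).

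Which rows enter the scaling mattered for footprints. Protein-coding rows held 37.9% to 43.7% of the footprint counts, and pseudogene rows 22.3% to 26.9% in BCAA-free 5+3 mice, 21.2% to 23.3% in AA 5+3 mice and 19.4% to 24.2% in BCAA-free vehicle mice. All 14 genes that rose with all rows were among the 25 that rose with protein-coding rows alone, Pola2 still fell, and Wdhd1 had an adjusted p of 0.0728. Without BCAA-free vehicle mouse 5 there were 9 calls.

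**Figure D3:**
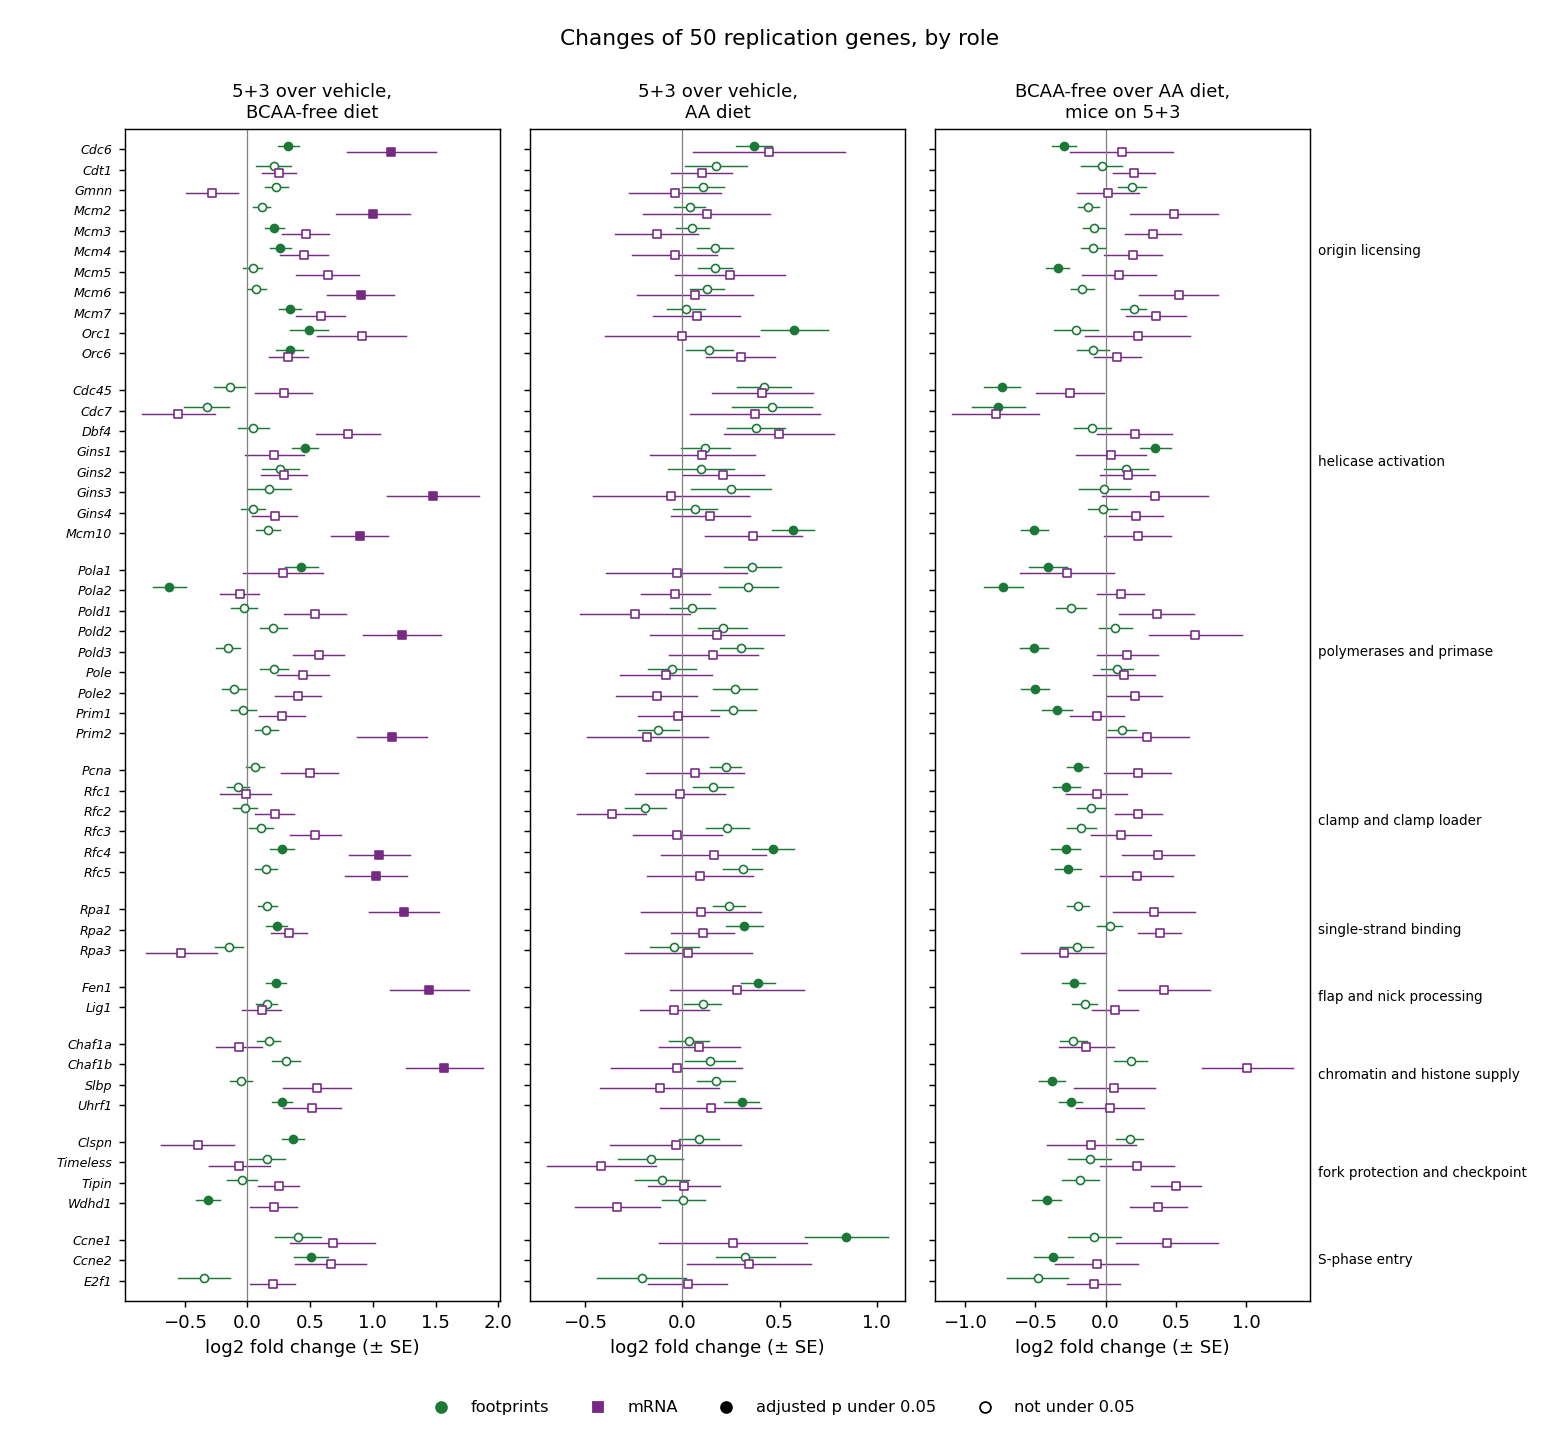
Log2 fold change with its SE (x axis) of each of the 50 genes (y axis, by role), for footprints (circles) and mRNA (squares), with filled symbols for an adjusted p under 0.05. The left panel shows 12 filled mRNA symbols on the right of 0, and the right panel shows 19 filled footprint symbols on the left of 0 and 1, Gins1, on the right.

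Translational efficiency, the footprint change relative to the mRNA change, was tested as an interaction over all 42 libraries on 12097 genes. Under 5+3 on the BCAA-free diet it fell for 6 of the 50 genes and rose for 0, where 3.94% of all genes were called lower and 3.51% higher. The 6 were Gins3 (log2 change -1.47 ± 0.39, adjusted p = 0.0360), Chaf1b (-1.11, 0.0422), Fen1 (-1.05, 0.0359), Prim2 (adjusted p = 0.0463), Rpa1 (-0.95, 0.0461) and Pold2 (-0.94, 0.0384). All 6 were among the genes whose mRNA rose, and their footprints had log2 changes between 0.15 and 0.31. For all 6 the ratio of footprints to mRNA was highest in BCAA-free vehicle mice. The mean log2 ratio of Gins3 was -0.77 there, -2.38 in BCAA-free 5+3, -2.12 in AA 5+3 and -2.28 in AA vehicle mice. Pold2 had -0.745, -1.81, -1.25 and -1.13 in that order. No fit of translational efficiency left out the 4 mRNA libraries named above, so their part in these calls was not tested. These calls were fragile: leaving out 1 mouse gave between 0 and 9 calls, and 7 of the 12 mice gave 0. Without the mouse as a block there were 3.

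Genes related to replication were counted beside the 50. In mRNA under 5+3 on the BCAA-free diet, 4.33% of all genes were called higher and 4.23% lower. There 10 of 35 genes of G2 and mitosis rose and 1 fell. Among those that rose were Ccnb1, cyclin B1 (log2 change 1.70 ± 0.39, adjusted p = 0.0158), and Aurkb, a kinase of chromosome segregation (1.23 ± 0.29, 0.0172). Of 28 regulators of G1 and S, 6 rose and 1 fell, with Cdkn1a, the p21 inhibitor of cyclin-dependent kinases, at 1.13 ± 0.26 (adjusted p = 0.0164). Of 14 genes of nucleotide supply 2 rose and 1 fell, with Rrm2, the small subunit of ribonucleotide reductase, at 1.46 ± 0.33 (adjusted p = 0.0142). Of 33 other replication genes 3 rose and 2 fell, and of 13 S-phase checkpoint genes 0 were called.

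In footprints of that comparison, where 8.76% of all genes were called higher and 11.9% lower, nucleotide supply had 7 genes that rose and 1 that fell of 14, led by Rrm2 (log2 change 0.89 ± 0.11, adjusted p = 2.08e-05) and Dut, which removes dUTP (0.47 ± 0.08, 0.000464). Of 13 checkpoint genes 1 rose and 3 fell, the last being Chek2 (-0.71 ± 0.19, 0.00968), Atm (-0.44 ± 0.14, 0.0236) and Rad1 (-0.46 ± 0.16, 0.0399). Of 24 regulators of G1 and S 5 rose and 3 fell, with Cdkn1a at 1.45 ± 0.24 (adjusted p = 0.000236) and Cdk2, a kinase of S-phase entry, at -0.44 ± 0.09 (0.00151). Of 35 genes of G2 and mitosis 2 rose, and of 33 other replication genes 3 rose and 2 fell.

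The second comparison asked the same of 5+3 on the AA diet. In mRNA 0 of the 50 genes were called by edgeR and 0 by DESeq2, and 0 had an unadjusted p under 0.05, where 0.0616% of all genes were called. The changes lay between -0.41 (Timeless) and 0.50 (Dbf4) on the log2 scale, with a median of 0.07. In footprints 8 of the 50 genes rose and 0 fell, where 3.49% of all genes were called higher and 3.12% lower. They were Cdc6 and Orc1 (licensing), Mcm10 (helicase activation), Rfc4 (clamp loader), Rpa2 (single-strand binding), Fen1 (flap removal), Uhrf1 (chromatin) and Ccne1 (S-phase entry). Values for 43 of the 50 genes were above 0, and the median log2 change was 0.17, against -0.02 over all genes. The lowest value was that of E2f1, a factor of S-phase entry, at -0.21 (adjusted p = 0.644).

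Mcm10 footprints were 61.6, 58.0, 72.2 and 60.3 CPM in AA 5+3 mice, against 44.6, 44.6, 39.9, 42.1 and 41.4 CPM in AA vehicle mice. The groups stood well apart (log2 change 0.57 ± 0.11, adjusted p = 0.00184). Ccne1, cyclin E1, had the highest log2 change, with 7.94, 9.82, 9.26 and 9.26 CPM in AA 5+3 mice against 3.55, 4.12, 3.99, 5.02 and 7.70 CPM in AA vehicle mice. The groups came close at vehicle mouse 5 (log2 change 0.84 ± 0.21, adjusted p = 0.0172). Footprint counts of Ccne1 were low, with a median of 34 per library and a lowest of 9. Fen1 footprints were 106.2, 102.3, 105.1 and 93.1 CPM in AA 5+3 mice, against 71.4, 83.1, 79.0, 72.2 and 82.3 CPM in AA vehicle mice, with no overlap (log2 change 0.39 ± 0.09, adjusted p = 0.00902).

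Rfc4 footprints were 45.3, 42.1, 44.4 and 49.0 CPM in AA 5+3 mice, against 32.7, 30.7, 32.5, 33.9 and 33.6 CPM in AA vehicle mice, with no overlap (log2 change 0.47 ± 0.11, adjusted p = 0.0108). Cdc6 footprints were 57.1, 49.3, 56.9 and 57.1 CPM in AA 5+3 mice, against 45.0, 46.4, 38.0, 39.2 and 45.7 CPM in AA vehicle mice (log2 change 0.37 ± 0.09, adjusted p = 0.0177). Every AA 5+3 mouse was above every AA vehicle mouse for both genes. Uhrf1 footprints were 260.7, 282.5, 314.0 and 283.3 CPM in AA 5+3 mice and 241.4, 260.7, 193.5, 212.9 and 246.4 CPM in AA vehicle mice, so that the groups touched at the precision printed (log2 change 0.31 ± 0.09, adjusted p = 0.0445). Orc1 footprints were 15.5, 22.5, 21.8 and 20.0 CPM in AA 5+3 mice, against 12.2, 13.5, 14.6, 8.97 and 17.4 CPM in AA vehicle mice (log2 change 0.58 ± 0.17, adjusted p = 0.0444), with overlap at 1 mouse. The 8 calls fell to 5 without AA 5+3 mouse 1, 2 or 3 or without AA vehicle mouse 3, and Uhrf1, Orc1 and Rpa2 kept theirs in only 2 of 9 fits that left out a mouse.

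In mRNA, 3 of the 4 genes given next, taken from those called in footprints, overlapped between the AA groups. Overlap between these groups was not counted over all genes. Fen1 mRNA was 300.2, 263.3, 183.5 and 151.5 CPM in AA 5+3 mice, against 139.6, 237.4, 106.2, 285.4 and 154.1 CPM in AA vehicle mice. Rfc4 mRNA was 129.2, 104.6, 93.0 and 139.0 CPM in AA 5+3 mice, against 86.2, 148.6, 74.2, 123.3 and 88.1 CPM in AA vehicle mice. AA vehicle mice 2 and 4 were the high ones for both genes. Cdc6 mRNA was 87.2, 62.0, 49.3 and 48.7 CPM in AA 5+3 mice, against 27.4, 46.5, 35.3, 81.6 and 35.9 CPM in AA vehicle mice, where mouse 4 alone stood above most of the AA 5+3 mice. Mcm10 mRNA was 50.5, 44.0, 46.7 and 45.7 CPM in AA 5+3 mice, against 30.2, 41.7, 36.1, 39.8 and 33.4 CPM in AA vehicle mice. Its groups did not overlap, but it was not called.

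Related genes were counted in footprints under 5+3 on the AA diet, where 3.49% of all genes were called higher and 3.12% lower. Beside the 50, 12 of 35 genes of G2 and mitosis rose and 0 fell. Bub1, a spindle checkpoint kinase, was at 0.65 ± 0.12 on the log2 scale (adjusted p = 0.00136). Of 14 genes of nucleotide supply 4 rose and 0 fell, with Tyms, thymidylate synthase, at 0.79 ± 0.12 (adjusted p = 0.000367) and Rrm2 at 0.80 ± 0.12 (0.000352). Of 24 regulators of G1 and S 6 rose and 0 fell, with Ccna2, cyclin A2, at 0.61 ± 0.08 (adjusted p = 0.000143) and Cdkn1a at 1.59 ± 0.27 (0.000954). Of 33 other replication genes 3 rose, with Asf1b, a histone chaperone, at 0.59 ± 0.13 (adjusted p = 0.00703) and of 13 checkpoint genes 0 were called. In mRNA, where 0.0616% of all genes were called, the single call among these lists was Cdkn1a, at 1.57 ± 0.29 (adjusted p = 0.0425). Translational efficiency had 0 calls in this comparison among the 50 genes and 0% among all genes, and 0 of the 50 had an unadjusted p under 0.05.

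The third comparison asked what the diet did without chemotherapy. In mRNA 0 of the 50 genes were called by edgeR or DESeq2, as were 0% of all genes, while 8 had an unadjusted p under 0.05 and 37 had values below 0. They lay between -1.18 (Gins3, adjusted p = 0.320) and 0.26 (Tipin, a fork protection factor, adjusted p = 0.569) on the log2 scale. In footprints 1 gene fell and 0 rose, where 1.4% of all genes were called lower and 0.642% higher. This was Ccne2, with 16.9, 17.8, 26.6, 17.8 and 23 CPM in BCAA-free vehicle mice against 24.1, 25.5, 34.6, 28.0 and 37.8 CPM in AA vehicle mice. The groups overlapped, 2 of 25 pairs of mice were higher on the BCAA-free diet (log2 change -0.55 ± 0.15, adjusted p = 0.0476), and the call was kept in 5 of 10 fits that left out a mouse. The median log2 change of the 50 was -0.11 in footprints and -0.28 in mRNA, against 0.00 and -0.06 over all genes. Translational efficiency had 0 calls among the 50 and 0% among all genes, with 5 of the 50 at an unadjusted p under 0.05. Beside the 50, Samhd1, which degrades nucleotides, fell in footprints (log2 change -0.61 ± 0.14, adjusted p = 0.0249), and Cenpa, the centromere histone, rose (0.48 ± 0.12, 0.0395). The names of the AA vehicle mice end in a B of unstated meaning. Should the B stand for a batch, its effect and that of the AA vehicle group cannot be told apart here or in any comparison that uses those mice.

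The fourth comparison asked what the diet did under 5+3. In footprints 19 of the 50 genes fell and 1 rose, where 15.8% of all genes were called lower and 12.5% higher. With protein-coding rows alone, the alternative described above, 9 fell and 4 rose, where 16.5% of all genes were called lower and 14.6% higher, so the share of the 50 that fell was near that of all genes. The 19 genes included 5 of 9 polymerase and primase genes (Pola1, Pola2, Pold3, Pole2, Prim1), 4 of 6 clamp genes (Pcna, Rfc1, Rfc4, Rfc5), 3 of 8 genes of helicase activation (Cdc45, Cdc7, Mcm10) and 2 of 11 of licensing (Cdc6, Mcm5). Fen1, Slbp, Uhrf1, Wdhd1 and Ccne2 fell as well, and 0 of the 3 RPA genes did. Gins1 rose. These roles hold for the fit with all rows. With protein-coding rows alone the 4 clamp genes did not pass. Their adjusted p was 0.308 for Pcna, 0.128 for Rfc1, 0.154 for Rfc4 and 0.153 for Rfc5. The 9 genes that still fell are named below. With all rows the median log2 change of the 50 was -0.19, against 0.01 over all genes, and 40 of the 50 values were below 0. In mRNA 0 of the 50 genes were called by edgeR or DESeq2, where 1.24% of all genes were, with 4 at an unadjusted p under 0.05 and 40 values above 0. They lay between -0.78 (Cdc7, adjusted p = 0.258) and 1.01 (Chaf1b, adjusted p = 0.148) on the log2 scale. For 31 of the 50 genes the mRNA value was above 0 and the footprint value below it. Yet translational efficiency, which tests that difference, had 0 calls among the 50 and 0.00827% among all genes, with 6 of the 50 at an unadjusted p under 0.05.

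Cdc45, a core part of the replicative helicase, had the smallest adjusted p. Its footprints were 33.4, 39.8 and 60.4 CPM as the lowest, median and highest of BCAA-free 5+3 mice, against 80.5, 71.5, 71.9 and 67.6 CPM in AA 5+3 mice. The groups did not overlap (log2 change -0.74 ± 0.13, adjusted p = 0.000178). Pola2 footprints, with 11.1, 19.0 and 22.2 CPM in BCAA-free 5+3 mice, stood against 31.3, 31.6, 27.8 and 31.6 CPM in AA 5+3 mice, again with no overlap (log2 change -0.73 ± 0.14, adjusted p = 0.00042). Mcm10 footprints were 36.8, 43.9 and 50.9 CPM in BCAA-free 5+3 mice, all below the 58.0 to 72.2 CPM of AA 5+3 mice (log2 change -0.50 ± 0.10, adjusted p = 0.000465).

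Pold3, an accessory subunit of polymerase delta, averaged 23.4 ± 2.60 CPM in BCAA-free 5+3 mice and 33.5 ± 0.726 in AA 5+3 mice (log2 change -0.51 ± 0.10, adjusted p = 0.000579). Pole2, an accessory subunit of polymerase epsilon, averaged 21.3 ± 3.00 and 30.5 ± 0.794 CPM in the same groups (log2 change -0.50 ± 0.10, adjusted p = 0.000761), and neither gene's groups overlapped. Slbp, which binds histone mRNAs, averaged 72.4 ± 6.02 CPM in BCAA-free 5+3 mice and 94.2 ± 7.27 in AA 5+3 mice (log2 change -0.38 ± 0.09, adjusted p = 0.00266). Cdc7 had the lowest log2 change, -0.76 ± 0.19 (adjusted p = 0.00356), at 7.26 ± 2.20 CPM in BCAA-free 5+3 mice and 12.6 ± 1.70 in AA 5+3 mice, and its library counts ran as low as 16.

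Wdhd1 footprints were 46.2, 54.3 and 67.2 CPM in BCAA-free 5+3 mice, against 81.1, 63.5, 88.8 and 69.1 CPM in AA 5+3 mice, with 1 of 28 pairs higher on the BCAA-free diet (log2 change -0.42 ± 0.10, adjusted p = 0.00341). Pola1 had 59.8, 82.1 and 110.4 CPM in BCAA-free 5+3 mice, against 108.4, 106.7, 132.3 and 106.7 CPM in AA 5+3 mice (log2 change -0.41 ± 0.14, adjusted p = 0.0248). In 3 of 28 pairs the BCAA-free mouse was higher. Ccne2 had 24.1, 28.3 and 39.6 CPM in BCAA-free 5+3 mice, against 34.1, 38.8, 37.6 and 41.3 CPM in AA 5+3 mice (log2 change -0.37 ± 0.14, adjusted p = 0.0470). Rfc5 had 27.9, 29.2 and 35.2 CPM in BCAA-free 5+3 mice, against 40.3, 36.6, 38.4 and 31.1 CPM in AA 5+3 mice (log2 change -0.26 ± 0.09, adjusted p = 0.0339). Both pairs of groups overlapped. Gins1 was the exception in direction, with 22.7, 28.8 and 31.3 CPM in BCAA-free 5+3 mice, against 21.9, 24.0, 20.4 and 21.4 CPM in AA 5+3 mice, and 27 of 28 pairs were higher on the BCAA-free diet (log2 change 0.36 ± 0.11, adjusted p = 0.0200).

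Gins1 mRNA did not pass in any comparison: it was 33.9, 61.6 and 74.7 CPM in BCAA-free 5+3 mice, 52.2, 46.5, 61.0 and 68.5 in AA 5+3 mice, 89.8, 42, 37.4, 44.8 and 38.4 in BCAA-free vehicle mice and 63.9, 60.3, 40.1, 42.2 and 58.9 in AA vehicle mice. All 4 groups overlapped. Wdhd1 mRNA, which was also not called, was 46.6, 75.0 and 91.5 CPM in BCAA-free 5+3 mice, 63.8, 58.5, 59.4 and 46.1 in AA 5+3 mice, 40.8, 67.1, 83.8, 57.2 and 70.7 in BCAA-free vehicle mice and 59.4, 63.7, 71.2, 84.2 and 80.4 in AA vehicle mice. Its groups overlapped too.

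**Figure D4:**
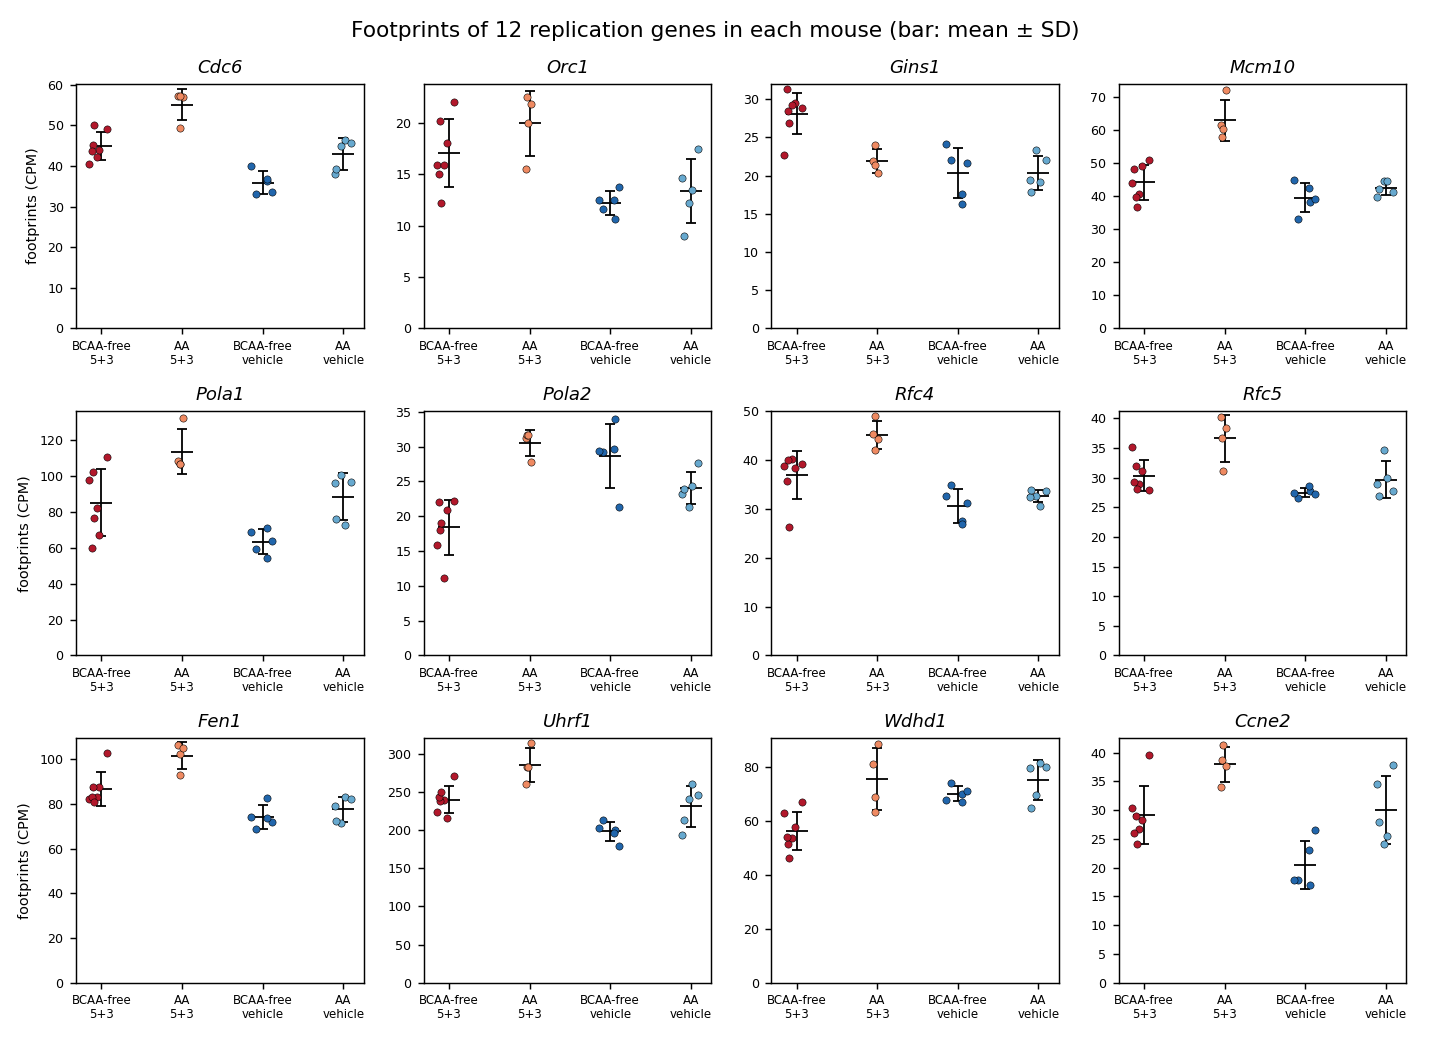
Footprints in CPM of 12 replication genes called in 2 or more comparisons (of those called in 2, Rpa2 had the largest adjusted p and is not shown), in each of the 21 mice (points), with the group mean and SD (bars). Pola2 is lowest in BCAA-free 5+3 mice (11.1 to 22.2 CPM), and Cdc6, Fen1, Mcm10 and Rfc4 are highest in AA 5+3 mice.

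The balance of this comparison depended on the scaling. The median log2 change of the 50 was -0.09 with protein-coding rows alone, against -0.19 with all rows. The 9 genes that fell with those rows were Cdc45, Cdc7, Mcm5, Mcm10, Pola2, Pold3, Pole2, Slbp and Wdhd1, all of them among the 19, and Gins1, Clspn, Gmnn and Mcm7 rose. With the replicate number as a block 11 were called, and 12 were called without AA 5+3 mouse 1 or 3 or BCAA-free 5+3 mouse 6.

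**Figure D5:**
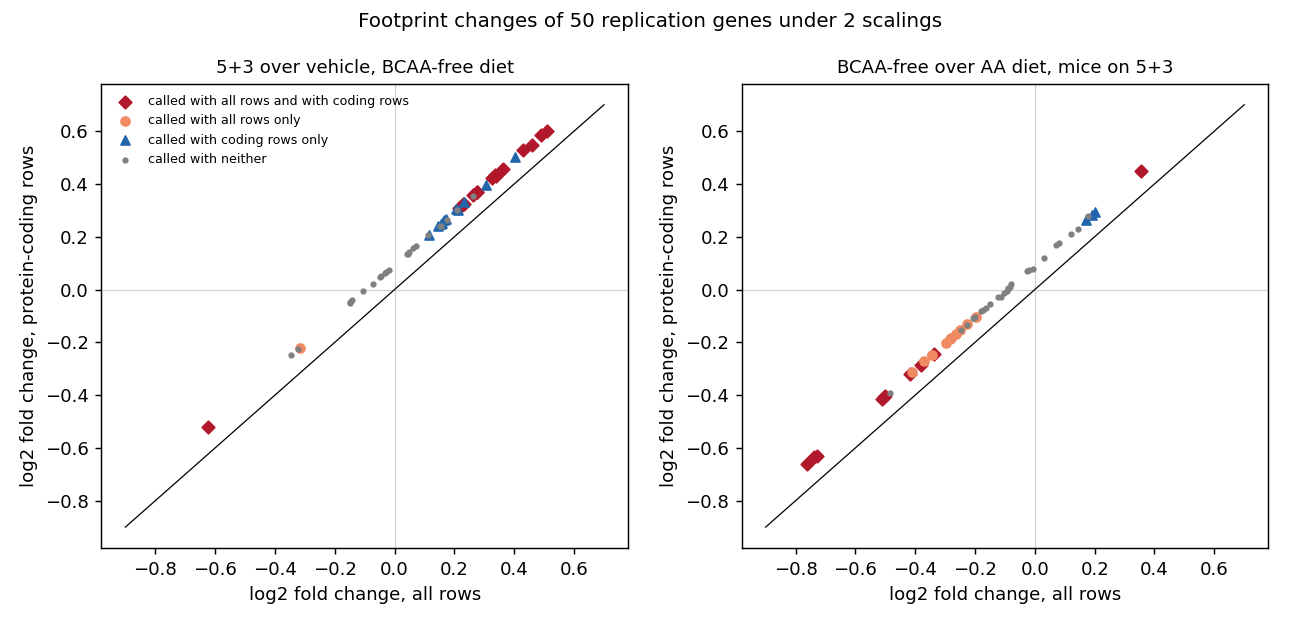
Log2 fold change of footprints of the 50 genes with all rows in the fit (x axis) and with protein-coding rows alone (y axis), for 5+3 over vehicle on the BCAA-free diet (left) and for BCAA-free over AA diet under 5+3 (right), with the line of equality. The median of the differences is 0.094 upward in each panel, and symbols show in which fit a gene was called.

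Related genes were counted with all rows in the fit, where 15.8% of all genes were called lower and 12.5% higher. Here and in the other comparisons these lists were not recounted with protein-coding rows alone. How far their counts depend on the scaling was therefore not tested. Of 35 genes of G2 and mitosis 15 fell and 0 rose, with Bub1 at -0.59 ± 0.11 on the log2 scale (adjusted p = 0.000262) and Top2a, the topoisomerase that doxorubicin is known to poison, at -0.57 ± 0.12 (0.00111). Of 33 other replication genes 11 fell and 2 rose, with Recql4, a helicase, at -0.91 ± 0.15 (adjusted p = 0.000147) and Asf1b at -0.61 ± 0.12 (0.000498). Of 24 regulators of G1 and S 7 fell and 2 rose, with Cdk2 at -0.49 ± 0.10 (adjusted p = 0.000465). Of 13 checkpoint genes 3 fell and 0 rose, with Chek1, the replication checkpoint kinase, at -0.64 ± 0.13 (adjusted p = 0.000605), Atm at -0.78 ± 0.14 (0.000318) and Chek2 at -1.04 ± 0.19 (0.000368). Nucleotide supply was split, with 3 of 14 genes lower and 4 higher. Tyms was at -0.60 ± 0.11 (adjusted p = 0.000326) and Nme2, a nucleoside diphosphate kinase, at 0.45 ± 0.10 (0.0019).

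The last comparison asked whether the 5+3 change differed between diets, by the interaction of diet and treatment. In footprints 1 of the 50 genes, Pola2, had a lower 5+3 change on the BCAA-free diet and 0 had a higher one, where 3.8% of all genes were called lower and 3.29% higher. Its footprints were 21.3, 24.3, 23.2, 23.9 and 27.7 CPM in AA vehicle mice, so with the values above they fell with 5+3 on the BCAA-free diet and had a log2 change of 0.34 on the AA diet that did not pass (adjusted p = 0.178). The interaction was -0.96 ± 0.20 (adjusted p = 0.00594), and Pola2 was called in all 21 fits that left out a mouse. Its mRNA interaction was -0.02 (adjusted p = 0.977), and its translational efficiency interaction had an adjusted p of 0.383. Leaving out BCAA-free 5+3 mouse 2 added 3 genes to the call.

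The median interaction of the 50 genes in footprints was -0.07 with 20 values above 0, and with protein-coding rows alone it was 0.03 with 31 above 0, so its direction depended on the scaling. With those rows 1 gene was called lower, Pola2, and 1 higher, Mcm7, where 2.83% of all genes were called lower and 2.38% higher. In mRNA 0 of the 50 genes were called by edgeR or DESeq2, where 0.0758% of all genes were, with 13 at an unadjusted p under 0.05, 42 values above 0 and a median log2 value of 0.41. The highest was Chaf1b at 1.60 ± 0.45 (adjusted p = 0.214) and the lowest Cdc7 at -0.92 ± 0.44 (adjusted p = 0.412). Translational efficiency had 0 calls among the 50 and 0.00827% among all genes, with 13 at an unadjusted p under 0.05. Beside the 50, footprint interactions were called lower for Cdk2 (-0.74 ± 0.14, adjusted p = 0.00258), Rbl2, a pocket protein that binds E2F (-0.60 ± 0.15, 0.0186), Chek2 (-1.11 ± 0.28, 0.0204), Tyms (-0.64 ± 0.16, 0.0208) and Asf1b (-0.57 ± 0.17, 0.0456), and 0 genes of the related lists were called higher.

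Over the 10 comparisons of mRNA and footprints, 15 of the 50 genes were called in none, 22 in 1, 6 in 2, 4 in 3 and 3 in 4. Cdc6, Fen1 and Rfc4 were the 3 called in 4. The comparisons share groups, so these counts are not independent of each other. The same tally was not made over all genes, so the counts are no trait of the 50. In the comparison with the most calls, footprints by diet under 5+3, 15.8% of all genes were called lower and 12.5% higher. Ratios of footprints to mRNA, which depend on the coding share of each transcript and are given as a description, placed Pole, Pola1 and Mcm4 highest among the 50 (log2 ratios of 1.42, 1.26 and 1.16 over the 21 mice) and E2f1, Tipin and Gins2 lowest (-4.28, -3.30 and -3.17). All 6 MCM subunits of the loaded helicase lay between percentiles 90.4 and 97.0 of the ratios of 8745 protein-coding genes.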

How the data were processed

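Each of 21 mice gave 1 mRNA library and 1 footprint library. The authors deposited whole-number counts per Ensembl gene, 1 table for each kind of library. Per the submitters' processing notes, the tools were STAR, Bowtie2, featureCounts, cutadapt and SAMtools on the build GRCm38 (mm10). Versions, the role of each tool and the counting's strandedness are not given in the sources here. Samples were grouped by the labels.

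The 2 tables were tested separately with edgeR 4.0.16 (R 4.3.3): filterByExpr (min.count 10, min.total.count 15), TMM scaling, and a robust quasi-likelihood fit over all 4 groups. Genes with a Benjamini-Hochberg adjusted p under 0.05, over all genes tested, were called. CPM values are TMM-scaled. Translational efficiency was the interaction of library kind and group over both kinds, scaled by TMM within each kind, with the mouse as a block. The scripts were tested on simulated data. mRNA and footprint libraries of 1 mouse are paired by the mouse's name. By deviations from the group mean, the mRNA library of 14 of 21 mice matched its own footprint library best within the group. The median correlation of these deviations within a mouse was 0.109. Translational efficiency rests on this pairing. Same-numbered mice of different groups are different animals, and their deviations correlated between -0.476 and 0.498, so replicate numbers do not pair them.

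Alternatives were DESeq2 1.42.0, median-ratio scaling, no filter on low counts, only the compared groups, a replicate block, protein-coding rows, leaving out 4 mRNA libraries, and leaving out each mouse. Values in every mouse (for the group of 7, the lowest, median and highest) are given, in the text or the plots, for the 12 genes called in most comparisons (ties by the smallest adjusted p), and each comparison names up to 6 called genes of smallest adjusted p, its highest and lowest changes, and up to 3 called genes of each related list. Other genes were named after their values were seen. The members and lists were chosen with earlier results of these data known. Levels were not compared between genes, since no gene lengths were used here.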

Additional observations from a re-analysis of the deposited data

Results flagged for a closer look

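In 104 groups of 4 to 7 mice, formed by 12 genes and the sum of the 50 in mRNA and footprints, 8 groups held a mouse far from the others, and chance gives about 1 in 20 groups. Gins1 mRNA was 89.8 CPM in BCAA-free vehicle mouse 1, and the others of that group were between 37.4 and 44.8. Rfc5 mRNA was 123.7 CPM in BCAA-free vehicle mouse 4, and the others were between 80.9 and 91.4. In BCAA-free 5+3 mouse 2, Ccne2 footprints were 39.6 CPM (others 24.1 to 30.3) and Fen1 footprints 102.8 CPM (others 81.0 to 87.8). Rfc4 footprints were 26.3 CPM in BCAA-free 5+3 mouse 7, below the others at 35.7 to 40.3. In AA 5+3 mouse 2, Cdc6 footprints were 49.3 CPM (others 56.9 to 57.1). In AA 5+3 mouse 3, Pola1 footprints were 132.3 CPM (others 106.7 to 108.4) and Pola2 footprints 27.8 CPM (others 31.3 to 31.6).

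The 5+3 change of Pola2 footprints differed between diets, with an interaction of -0.96 on the log2 scale (edgeR, adjusted p = 0.00594).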

How the results depend on the processing

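In mRNA under 5+3 on the BCAA-free diet, the 12 calls became 7 with only the compared groups and 0 without the 4 libraries, and leaving out 1 mouse gave 6 to 16. In footprints under 5+3 on the BCAA-free diet, the 16 calls became 10 with no filter on low counts and 26 with protein-coding rows, and leaving out 1 mouse gave 9 to 16. On the AA diet, leaving out 1 mouse gave 5 to 8 footprint calls, against 8. For the diet under 5+3, the 20 footprint calls became 11 with no filter, 11 with the replicate block and 13 with protein-coding rows, and leaving out 1 mouse gave 12 to 22. For the diet under vehicle, the 1 call became 2 with median-ratio scaling, 2 with no filter, 4 with DESeq2, 3 with protein-coding rows and 3 with only the compared groups, and leaving out 1 mouse gave 0 to 4. For the footprint interaction, the 1 call became 2 with no filter and 2 with protein-coding rows, and leaving out 1 mouse gave 1 to 4. For translational efficiency under 5+3 on the BCAA-free diet, the 6 calls became 3 without the mouse as a block, and leaving out 1 mouse gave 0 to 9. The causes were not tested. The comparisons with 0 calls kept 0 under every alternative run.

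Replicate numbers do not pair mice. The replicate block gave 18 calls in mRNA and 11 in footprints under 5+3 on the BCAA-free diet, 7 in footprints under 5+3 on the AA diet and 1 for the diet under vehicle. For called genes taken singly, 841 values under the alternatives kept the call and 261 lost it. For the named genes that were not called, 363 stayed so and 1 was called. No value changed sign. The alternative with a reference protein table was not run. Depth limits E2f1 and Gins3, whose median footprint count was 25, and Ccne1, at 34.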

Other observations

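Within the BCAA-free 5+3 group, Mcm6 mRNA was 453.6 to 515.8 CPM and Mcm2 mRNA 261.3 to 357.1 CPM in mice 1, 2, 4 and 5, and 241.4 to 248.1 and 121.7 to 129.4 CPM in mice 3, 6 and 7. On the first principal component of all mRNA, mice 1, 2, 4 and 5 lay between -64.9 and -51.0, and mice 3, 6 and 7 at 7.4, -3.1 and 17.7. AA vehicle mouse 4, with 487.2 CPM of Mcm6, lay at -44.4. BCAA-free vehicle mice 1, 2 and 5 lay at 45.4, 52.9 and 88.7. No groups were formed from these values and none were tested.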
